A study of Bos taurus with 6 samples.

Results

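Macrophage surface and scavenger receptors were examined through 10 genes in the mRNA counts of intramuscular fat (IMF) from steers and bulls. The genes are CD14, CD68, CD163, CSF1R, MRC1, MARCO, MSR1, LYZ, AIF1 and STAB1, and a gene entered when its symbol was a row of the count table, which lists 25444 genes. Rows were found for 9 of the 10, and MRC1, the mannose receptor gene, was not analysed here. The study compared castrated males (CM, steers) with intact males (IM, bulls) of the Chinese Qinchuan breed, all weaned at 3 months and slaughtered at 24 months, with the steers castrated at 6 months. IMF was dissected from the sternomandibularis muscle. RNA was pooled within each group, so that 1 mRNA library stood for the steers and 1 for the bulls. The series design gives 6 animals behind each of these libraries and the sample labels give 3. A further 4 small RNA libraries, 2 per group, came from pools of 3 animals by the series design and of 1 animal by the labels.

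Macrophages in fat take up dying cells, free lipid, haemoglobin and bacterial products through receptors on their surface. Scavenger receptors bind modified lipoproteins and other charged ligands, CD14 hands bacterial lipopolysaccharide (LPS) to the TLR4 receptor complex, and CSF1R receives the growth factors CSF1 and IL34 on which most macrophages depend. Some of these genes are broad myeloid markers and others are typical of tissue-resident macrophages. None of them is wholly restricted to macrophages. STAB1 is also known from sinusoidal and lymphatic endothelium, and LYZ from neutrophils, monocytes and secretory epithelium.

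The mRNA libraries held 12677375 counts in steers and 9868415 in bulls and were scaled by the median-of-ratios method, with factors of 1.04 and 0.959. A gene was called downregulated or upregulated in steers at an adjusted p under 0.05 in a two-sided exact binomial test of its 2 counts and a fold change over 2. This test compared 2 pooled libraries and not the conditions, since there were no replicates, and each 95% interval covers counting error only. Among the 17752 genes with a count, 1509 were called down, which is 8.5% of them, and 827, or 4.66%, were called up. With scaling by total counts the median over all genes moved to -0.23 on the log2 scale, and 2089 genes were called down and 586 up. Adipocyte markers were present, such as CIDEC with 9931 counts in steers against 7501 in bulls. Transcripts of skeletal muscle and fibroblasts were present too, ACTA1 with 13852 and 19910 counts. The 9 adipocyte markers found held 35210 and 36523 counts in all. The 12 skeletal muscle markers held 36419 and 51833, and the 10 fibroblast markers 1205350 and 576914. These sums, not adjusted for transcript length, do not set fat cells above the other tissues.

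Transcripts of the macrophage genes were fewer in the library of steers than in that of bulls for all 8 genes with more than 3 counts, as were those of 49.4% of all genes tested. CD14, CD68, MSR1, LYZ and AIF1 were called downregulated, which is 5 of the 9 genes found, against 8.5% of all genes tested and 7.61% of the 12787 genes with at least 10 counts in each library. CSF1R, CD163 and STAB1 had the smaller differences and were not called. The log2 fold changes ran from -4.38 for LYZ to -0.50 for STAB1, with a median of -2.06 over the 8 genes, compared with 0.01 over all genes tested. The whole counting interval lay below 0 for each of the 8, as it did for 24.6% of those 12787 genes. Summed over the 9 genes, the counts were 18175 in steers and 31758 in bulls, which is -0.93 on the log2 scale after scaling (-0.95 to -0.90). In CPM, the count set relative to the library total, the sums were 1434 and 3218. In bulk tissue fewer cells of a type and less RNA per cell cannot be told apart.

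**Figure D1:**
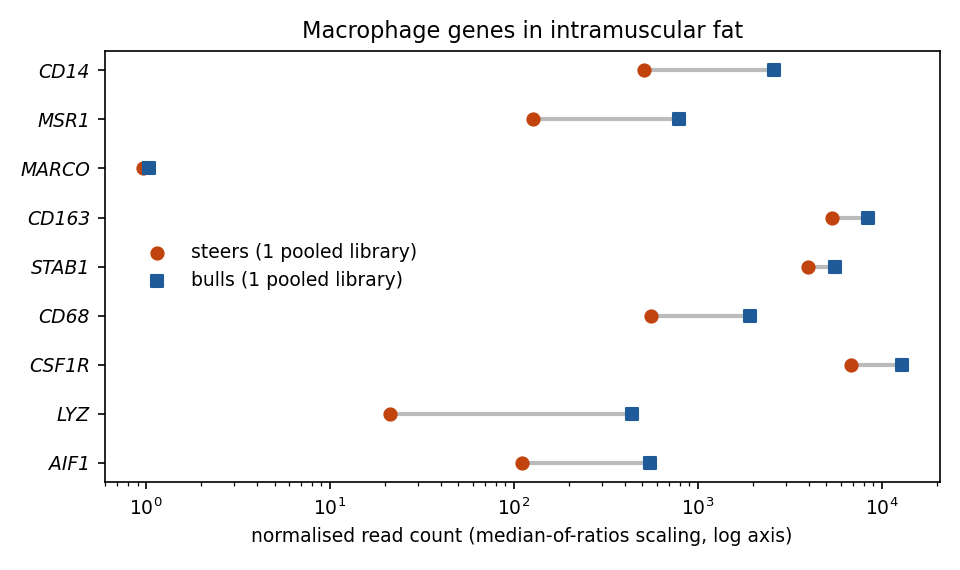
Normalised read counts (x axis, log scale, median-of-ratios scaling) of the 9 macrophage genes found, one row per gene, with a circle for the pooled library of steers and a square for that of bulls. The square lies to the right of the circle for the 8 genes with more than 3 counts, by the widest gap for LYZ, while MARCO has 1 count in each library, and levels of different genes are not adjusted for transcript length.

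CD14, the co-receptor that captures LPS at the cell surface, had 534 counts in steers against 2490 in bulls. The count in bulls, after scaling, was 5.07 times that in steers (95% counting interval 4.62 to 5.58), a log2 fold change of -2.34 (-2.48 to -2.21). MSR1, the class A scavenger receptor that takes up oxidised and acetylated lipoproteins, had 133 counts in steers against 761 in bulls. Its log2 fold change was -2.64 (-2.92 to -2.37), and 0.813% of the genes with at least 10 counts in each library had a lower one. MARCO, the other class A receptor of the group and a gene typical of alveolar and marginal zone macrophages, had 1 count in each library. Both MARCO counts were under the floor of 3 counts, so no fold change is given and a difference was not detectable at this depth.

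CD163, the receptor through which macrophages clear haemoglobin bound to haptoglobin, had 5611 counts in steers against 8052 in bulls. Its log2 fold change of -0.64 (-0.69 to -0.59) was under the threshold of 2-fold, and 14.0% of the genes with at least 10 counts in each library had a lower value. STAB1, a multidomain receptor for acetylated lipoproteins and matrix fragments, had 4124 and 5359 counts, and its log2 fold change of -0.50 (-0.56 to -0.44) was the nearest to 0 of the 8 genes. CD68, a heavily glycosylated protein of macrophage lysosomes that also reaches the cell surface, had 578 counts in steers against 1837 in bulls. CD68 was called downregulated at -1.79 (-1.93 to -1.65). In a RefSeq table of cattle genes STAB1 overlaps NT5DC2, and CD163 lies beside genes of the related WC1 family, so that reads of the one could be counted on the other. The WC1 family rows that were matched, WC1, WC1.3 and CD163L1, held 1 count in all.

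CSF1R, the tyrosine kinase receptor of the macrophage growth factors, had 7057 counts in steers against 12309 in bulls. Its log2 fold change was -0.92 (-0.97 to -0.88), just short of the 2-fold threshold, and 8.80% of the genes with at least 10 counts in each library lay lower. With scaling by total counts the value was -1.16 and CSF1R was called downregulated. AIF1, an actin-bundling calcium-binding protein of the macrophage cytoplasm, had 115 and 528 counts and was called downregulated at -2.32 (-2.62 to -2.03). AIF1 overlaps NCR3 in the RefSeq table, a gene with 73 counts in steers against 109 in bulls.

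LYZ, the enzyme that cleaves bacterial cell walls, had 22 counts in steers against 421 in bulls. Its log2 fold change of -4.38 (-5.07 to -3.76) was the lowest of the group, and 0.0235% of the genes with at least 10 counts in each library had a lower one. Cattle carry several lysozyme genes side by side, and in the RefSeq table LYZ3 and LYZ are close neighbours, so reads could be split between the copies. LYZ2 had 0 counts in steers against 14 in bulls, which makes it at least 5.08-fold lower in the steer library when 3 counts are taken as that library's floor. LYZ3 had 0 and 3 counts and LYZ1 had 1 and 0. The rows of LYZ1, LYZ2 and LYZ3 therefore held few counts beside LYZ itself in bulls. Whether reads shared between copies were counted on LYZ was not tested.

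**Figure D2:**
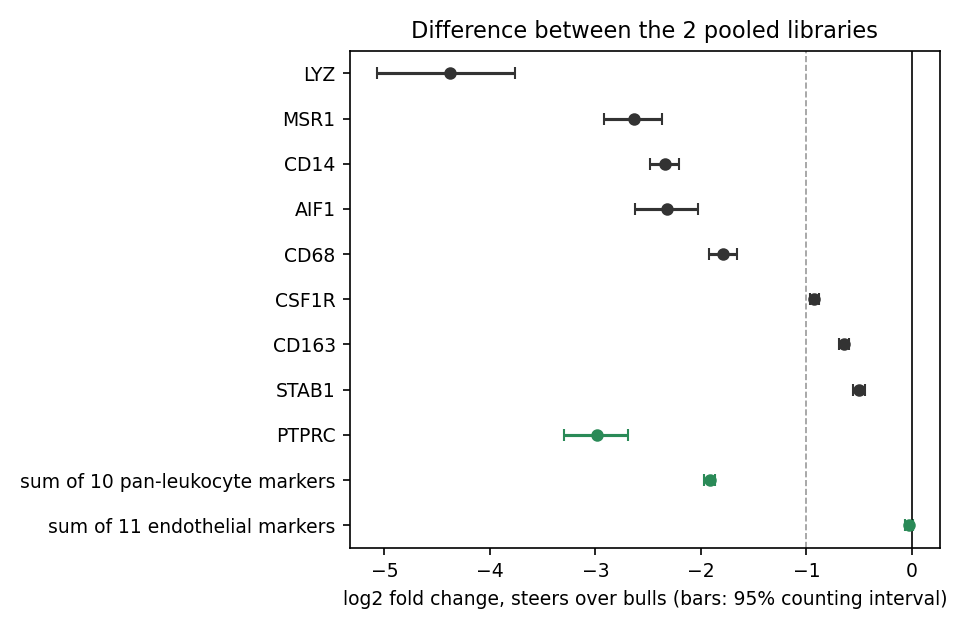
Log2 fold change of steers over bulls (x axis) for the 8 macrophage genes with more than 3 counts (black) and for 3 references (green), with bars for the 95% counting interval, a solid line at 0 and a dashed line at the 2-fold threshold. LYZ, MSR1, CD14, AIF1 and CD68 lie left of the dashed line, CSF1R, CD163 and STAB1 lie between the lines, and the summed endothelial markers lie at -0.03.

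The genes differed from each other in the size of the difference between libraries. The ratio of 2 genes within a library does not depend on how libraries are scaled, and it was compared between steers and bulls with a two-sided Fisher's exact test for 36 pairs, Benjamini-Hochberg adjusted over them. An adjusted p under 0.05 was found for 25 pairs, and the 8 pairs with MARCO were all among the others. CD14, MSR1 and AIF1 formed the remaining 3 pairs. The CD14 to AIF1 ratio was 4.64 in steers and 4.72 in bulls, a log2 ratio of ratios of -0.02 (interval -0.35 to 0.31). For CD14 over MSR1 the log2 ratio of ratios was 0.30 (-0.01 to 0.60), and for MSR1 over AIF1 it was -0.32 (-0.72 to 0.09). These intervals leave room for differences of up to the bounds given.

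LYZ stood apart from CD14, with 1 count of LYZ for 24.3 of CD14 in steers and for 5.91 in bulls. CD68 lay between the groups, with a ratio to CD163 of 0.103 in steers and 0.228 in bulls (log2 ratio of ratios -1.15) and a ratio of CD14 to CD68 of 0.924 and 1.36 (-0.55, -0.75 to -0.36). CSF1R, CD163 and STAB1 differed less from each other, from 0.14 to 0.42 on the log2 scale, although each of these 3 differences was larger than counting error. For CD163 over STAB1 the log2 ratio of ratios was -0.14 (-0.22 to -0.07). CSF1R, CD163 and STAB1 were grouped here after their values had been seen. Without adjustment for transcript length, they made up 92.4% of the counts of the 9 genes in steers and 81.0% in bulls. Their summed log2 fold change was -0.74 (-0.77 to -0.71), and that of the other 6 genes was -2.25 (-2.33 to -2.16).

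**Figure D3:**
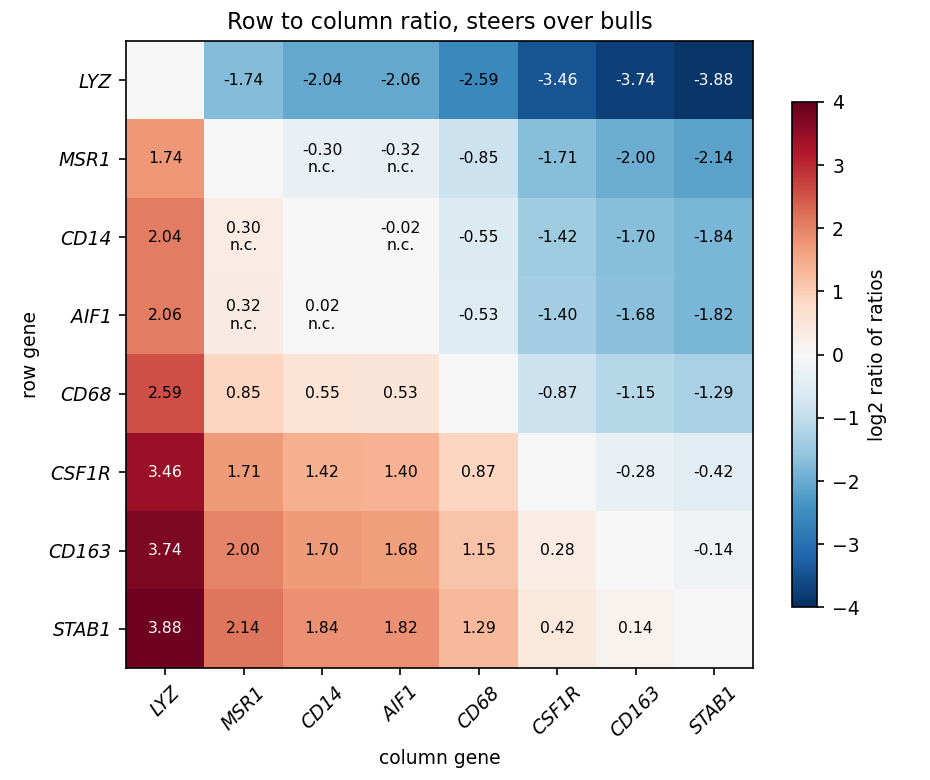
Log2 ratio of ratios for each pair of the 8 macrophage genes with more than 3 counts, as the ratio of the row gene to the column gene in steers over the same ratio in bulls, from blue (lower in steers) to red (higher in steers). Cells marked n.c. were not called by Fisher's exact test after adjustment, and these are the pairs among CD14, MSR1 and AIF1, while LYZ against STAB1 has the widest difference at -3.88.

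The same genes were set against PTPRC, which encodes the CD45 antigen of all leukocytes and had 107 counts in steers against 780 in bulls, for a difference of -2.99 on the log2 scale (-3.29 to -2.69). A gene with equal scaled counts in both libraries is therefore higher per PTPRC count in steers, and 98.8% of the genes with at least 10 counts in each library were so by Fisher's exact test adjusted over all of them, while 0.18% were lower. The ratios of CD163, STAB1, CSF1R, CD68, CD14 and AIF1 were among the many that were higher, and that of MSR1 was not called. There were 52.4 counts of CD163 for each of PTPRC in steers and 10.3 in bulls. STAB1 had 38.5 and 6.87, CSF1R 66.0 and 15.8, CD68 5.40 and 2.36, CD14 4.99 and 3.19, and AIF1 1.07 and 0.677 counts per PTPRC count. LYZ was the only one of the 8 with a lower ratio in steers, at 0.206 and 0.540 counts per PTPRC count. Against the sum of 10 pan-leukocyte markers, which had a log2 fold change of -1.92, CD163, CSF1R and STAB1 were relatively higher in steers, as were 94.9% of the genes with at least 10 counts in each library. CD14, MSR1, AIF1 and LYZ were relatively lower, as were 1.09% of them, and CD68 was not called. The CD14 and AIF1 ratios thus changed direction with the leukocyte reference. Set against the sum of 11 endothelial markers, all 8 genes with more than 3 counts were relatively lower in steers, as were 21.1% of the genes with at least 10 counts in each library, while 27.7% were higher.

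Genes listed beside CD14 for LPS sensing showed small differences with exceptions. Of 12 genes listed for the LPS receptor complex and its adaptors, 10 were found, and LY96 and TRAF6 were not. Of those found, 2 were called downregulated and 0 upregulated, beside 8.5% of all genes called down and 4.66% up. The median log2 fold change of the 10 was -0.36. TLR4, the signalling receptor, had 355 counts in steers against 524 in bulls, or -0.68 on the log2 scale (-0.88 to -0.49). MYD88, its adaptor, was at -0.44 (-0.57 to -0.31), IRAK1 at 0.31 and TIRAP at 0.35, none of them called. CD180, a TLR4 relative of B cells and myeloid cells, was called downregulated with 1 count in steers and 95 in bulls. The second gene called, LY86, encodes the partner of CD180, had 22 and 174 counts and is named here after its values were seen.

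The ligands of CSF1R differed little between the libraries. CSF1 had 1420 counts in steers against 1546 in bulls, or -0.24 on the log2 scale (-0.35 to -0.14), and IL34 had 250 and 253 counts, at -0.14 (-0.40 to 0.12). Over the colony-stimulating factor axis, 3 of 10 genes with a count were called downregulated and 0 upregulated. The shares over all genes tested were 8.5% called down and 4.66% called up. CSF2RB, the shared receptor chain for granulocyte-macrophage colony-stimulating factor, was at -1.29 (-1.56 to -1.02), and FLT3, a kinase receptor of dendritic cell and blood progenitors, at -1.62 (-2.39 to -0.89). The FLT3 ligand gene FLT3LG was at 0.05. Among myeloid transcription factors, 6 of 12 with a count were called downregulated, with a median of -1.22. TFEC, which is expressed mainly in macrophages, had 15 counts in steers against 79 in bulls, at -2.52. NR1H3, the oxysterol receptor that drives cholesterol efflux, was at 0.31 and KLF4 at -0.26, neither of them called.

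Other scavenger receptors as a list were close to the median of all genes. Of 14 found, 1 was called downregulated and 0 upregulated, and their median log2 fold change was -0.12, so that the share called was close to the 8.5% of all genes. LRP1, an endocytic receptor found on many cell types including fibroblasts and fat cells, had 63517 counts in steers against 42460 in bulls (0.46, 0.44 to 0.48). CD36, the fatty acid receptor, was at -0.39, SCARB1, the receptor of high-density lipoprotein, at -0.88, and SCARA5 at -0.05. The gene called was OLR1, named after its values were seen, with 1 and 15 counts. STAB2, the relative of STAB1, had 0 and 4 counts. Among relatives of the 9 genes by protein family, 17 had a count, 3 of them were called downregulated and 0 upregulated, and the median was 0.05, or -0.18 with scaling by total counts. The 3 were FLT3, KIT and LAMP3.

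C-type lectin receptors, the class to which MRC1 belongs, were called downregulated in 9 of 17 cases, beside 8.5% of all genes, and 4 of the 9 had at least 10 counts in each library. Their median was -1.91 with a prior of 0.5 counts and -1.38 when genes without a count in a library were set at the floor of 3. CD209 had 1008 counts in steers against 2178 in bulls (-1.23, -1.34 to -1.13), and CLEC4F had 1 and 47. MRC2, a collagen-binding relative of MRC1 that fibroblasts express, had 20280 and 9779 counts, a difference of 0.93 on the log2 scale (0.90 to 0.97) that was not called. Phagocytic and Fc receptors were called downregulated in 15 of 22 cases, and their median was -1.62. EMR1, an adhesion receptor long used as a macrophage marker in mice, had 7 counts in steers against 153 in bulls (-4.57, -5.91 to -3.49). SIRPA, which receives the CD47 signal against engulfment, was at -0.95 and the neonatal Fc receptor FCGRT at -0.86. AXL, a receptor for dying cells also present on stromal cells, was at -0.28, and its relative TYRO3 at 0.42.

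Genes typical of resident macrophages were split. Of 12 found, 6 were called downregulated and 0 upregulated, with a median of -1.35, beside 8.5% of all genes called down and 4.66% up. F13A1, the coagulation factor subunit made by tissue macrophages, had 3766 counts in steers against 9632 in bulls (-1.48, -1.53 to -1.42). The complement genes C1QA and C1QC were at -1.34 and -2.11. SEPP1, the selenoprotein P gene, had 6962 and 7295 counts and was at -0.19, and APOE was at 0.64, neither of them called. Lysosomal genes had a median of -0.16, with 5 of 24 called downregulated. CTSB at 0.17, PSAP at -0.16, LAMP1 at 0.08 and CTSK at 0.57 were not called. The 5 genes called were CTSC at -1.41, CTSS at -1.68, LIPA at -1.54, ACP5 at -1.04 and LAMP3 at -3.11, the first 4 of them named after their values were seen. CTSS is the cathepsin of antigen-presenting cells and LAMP3 is a marker of mature dendritic cells.

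Haptoglobin is the carrier that brings haemoglobin to CD163, and its gene HP had 124 counts in steers against 944 in bulls, or -3.05 on the log2 scale (-3.33 to -2.78). Over the haem and iron list, 3 of 15 genes with a count were called downregulated and 1 upregulated, with a median of -0.39. FTH1, the ferritin heavy chain, was at -0.39 and FTL at 0.31, whereas TF, transferrin, was called upregulated with 39 and 10 counts (1.84, 0.81 to 3.01). Genes of macrophage activation were scarce, with 801 counts in steers against 1647 in bulls over 18 genes. Of the 17 with a count, 6 were called downregulated, and 4 of these 6 had at least 10 counts in each library. IL1RN, the interleukin-1 receptor antagonist, had 14 and 128 counts (-3.31), SPP1 had 116 and 302 (-1.50), and TGFB1 had 398 and 756 (-1.05). NOS2 was at 0.95 (0.29 to 1.64) and VEGFA at -0.98, and neither was called. Over all of these lists, 162 genes other than the 9 had a count and 57 of them were called downregulated, or 35.2%, against 8.5% of all genes tested, and 1 was called upregulated.

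**Figure D4:**
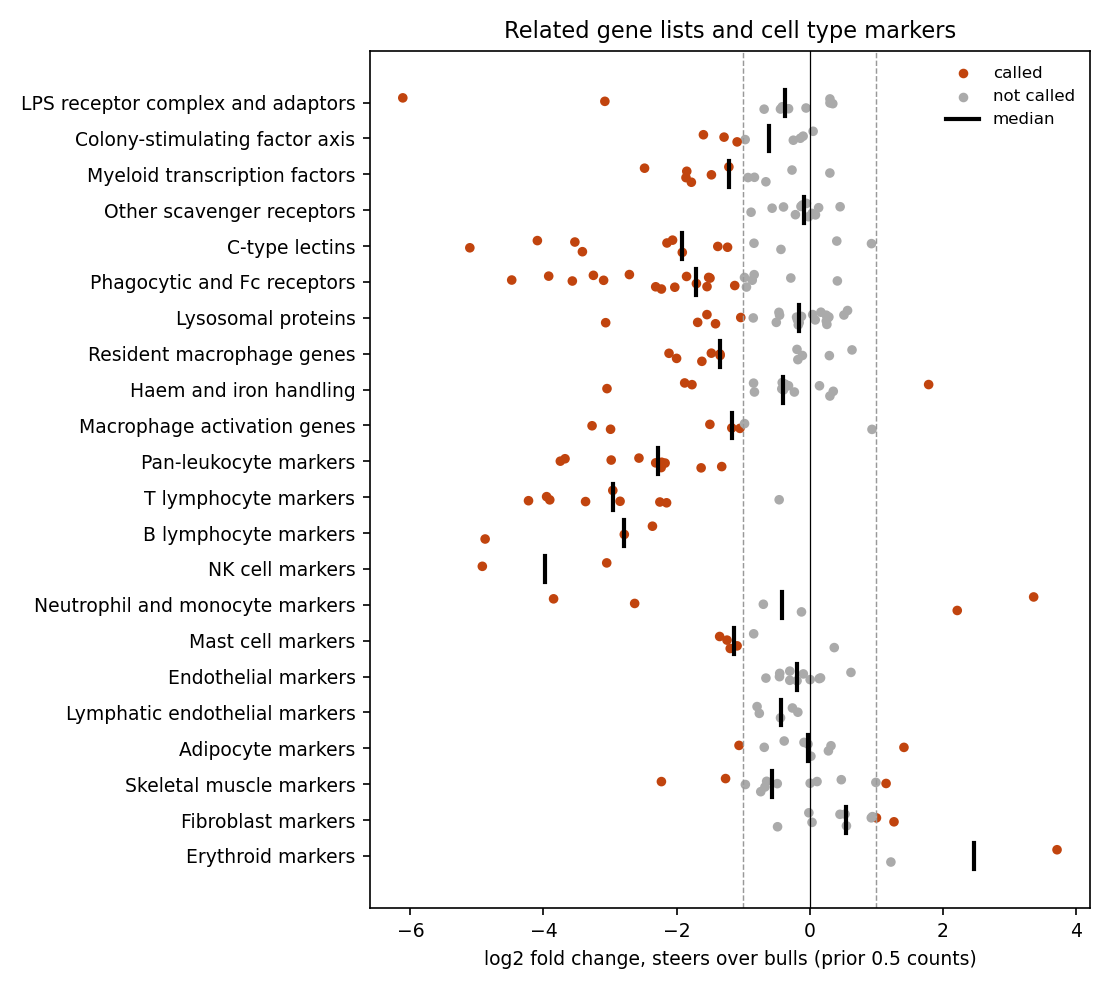
Log2 fold change of steers over bulls (x axis, prior of 0.5 counts) for genes of 10 related lists and 12 marker lists with at least 1 count in each library and 20 over both, with one point per gene, red where called, and a black bar at the median of the points shown. Points of the C-type lectin, phagocytic receptor and leukocyte lists lie mostly left of the dashed line at 2-fold, and those of the endothelial and other scavenger receptor lists lie mostly between the dashed lines.

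Markers of several other leukocytes were also called downregulated in the library of steers, beside 8.5% of all genes tested. All 10 pan-leukocyte markers were called downregulated, with 302 CPM in steers and 1347 in bulls over the list, among them LAPTM5 at -1.63 and CD48 at -3.77. T lymphocyte markers were called downregulated in 9 of 10 cases (12.6 and 98.5 CPM in all), CD3E with 35 and 253 counts and CD3G with 0 and 34. For NK cells, 6 of 6 were called downregulated (4.02 and 59.5 CPM), and 4 of them, GZMB included, had 0 counts in steers. For B lymphocytes, 4 of 7 with a count were called downregulated (3.94 and 31.0 CPM), and CD79B and MS4A1 had 0 counts in both libraries. Mast cell markers were called downregulated in 4 of 6 cases (42.1 and 103 CPM), CPA3 with 108 and 254 counts. Many of the lymphocyte and NK cell genes called had few counts in steers. With at least 10 counts in each library there were 4 called T lymphocyte, 1 NK cell and 2 B lymphocyte markers. Of all genes with such counts, 7.61% were called down. The part of these cells in the values of LYZ, CD14 and the other macrophage genes was not tested.

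Neutrophil and monocyte markers did not move one way, over a list of 9 genes. S100A8 had 95 counts in steers against 8 in bulls and S100A9 had 149 and 29, and both were called upregulated. CCR2, the receptor that brings monocytes from blood, was called downregulated with 17 and 99 counts. CXCR2 had 0 and 3 counts. Endothelial markers, of interest for STAB1, were called in 0 of 11 cases in either direction, PECAM1 at 0.16 and VWF at -0.19. The 5 lymphatic endothelial markers were at 168 CPM in steers and 252 in bulls, and 0 of them were called, CCL21 at -0.79 and LYVE1 at -0.18. Fibroblast markers took 95079 CPM in steers and 58461 in bulls, with 2 of 10 called upregulated and 0 downregulated, COL3A1 at 1.27. Of the skeletal muscle markers (2873 and 5252 CPM) 2 of 12 were called downregulated and 1 upregulated, MYH7 at -2.23 and MYH1 at 1.15. Adipocyte markers took 2777 and 3701 CPM with 1 of 9 called in each direction, FABP4 at -1.06 and GPD1 at 1.42, and erythroid markers took 3.63 and 0.811 CPM, with HBB called upregulated at 21 and 1 counts. Beside these counts stand 8.5% of all genes called down and 4.66% called up. The part of these other cell types was not tested either.

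The small RNA libraries were the replicated measurement of the series, and they held miRNAs known from blood cells. The mature sequences of the miRNAs most tied to myeloid and other blood cells are shown as the study's supplementary table writes them, 5′ to 3′ with T for U and with the seed, bases 2 to 8, in capitals.
miR-223: tGTCAGTTtgtcaaatacccca
miR-142-5p: cATAAAGTagaaagcactac
miR-142-3p: aGTGTTTCctactttatggatg
MiR-223 is abundant in neutrophils and monocytes, and the arms of miR-142 are found in nearly all blood cells. The seeds of the 3 differ from each other.

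MiR-223 had 41 and 23 counts in the libraries of steers and 223 and 281 in those of bulls. After TMM scaling in edgeR its level was 3.97 ± 1.82 CPM in steers against 29.8 ± 0.444 in bulls (SD, n = 2), and both libraries of steers lay below both of bulls, as they did for 31.5% of the 1073 sequences tested. Its log2 fold change was -2.91 (SE 0.56, adjusted p = 1.51e-05 in edgeR's quasi-likelihood test), and it was called downregulated, as were 7.08% of these sequences. MiR-142-5p counted 4458 and 3488 in the steer libraries against 15449 and 9424 in the bull libraries, reached 490 ± 117 CPM against 1527 ± 731 (SD, n = 2), and was called downregulated at -1.64 (SE 0.50, adjusted p = 0.0147 in edgeR). MiR-142-3p, from the other arm, counted 227 and 175 in the steer libraries against 416 and 237 in the bull libraries, and its groups overlapped (-0.70, SE 0.48, adjusted p = 0.332 in edgeR). MiR-150, which lymphocytes carry, lay at 31.1 and 23.6 CPM in steers against 68.1 and 52.0 in bulls, and was not called at -1.14 (SE 0.46, adjusted p = 0.0824 in edgeR). The paper, which used EBseq, lists miR-150 among its differentially expressed miRNAs, also lower in steers. MiR-155, miR-146a, miR-146b and miR-342 overlapped between the groups and were not called, with log2 fold changes from -0.71 to -0.01. MiR-511, which lies in an intron of MRC1 in mammals, was not analysed here.

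Both miRNA calls depended on the scaling and on single libraries. With scaling by total counts miR-223 was at -3.45 and miR-142-5p at -2.06, each with an adjusted p of 0.0693 in edgeR, so that neither was called. That scaling put the median of all sequences at -0.56 and called 1 of the 1073, which was up, instead of 76 up and 76 down. Without the second library of steers miR-223 was not called (-2.46, adjusted p = 0.111 in edgeR). Without the first library of steers, the second of steers or the first of bulls, miR-142-5p was not called, at -1.87, -1.39 and -0.85. The numbers of the animals behind these libraries differ between the sources, so the p-values measure the spread between the 4 pools only.

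**Figure D5:**
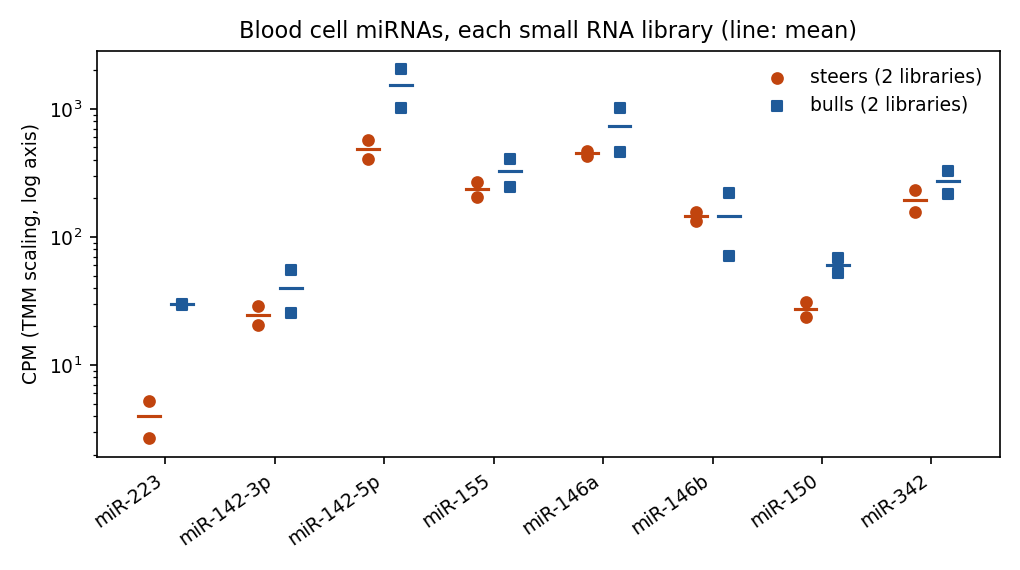
Level of 8 blood cell miRNAs (y axis, TMM-scaled CPM, log scale) in each small RNA library, with circles for the 2 libraries of steers, squares for the 2 of bulls and a short line at each group's mean. The groups are apart for miR-223, miR-142-5p and miR-150 and overlap for the other 5, beside 58.2% of all 1073 sequences with groups apart, and miR-223 has the widest gap, from 2.69 and 5.26 CPM in steers to 29.5 and 30.1 in bulls.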

How the data were processed

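The deposited mRNA table holds raw counts per gene, with no normalization. Per the paper's methods, the authors trimmed adaptors and poor reads from Ion Proton runs and mapped what was left to the cattle genome in MapSplice. How reads were assigned to genes, and whether strand was used, is not given in the sources used here. The deposited miRNA values are raw counts per sequence from HiSeq runs, which the authors mapped using BWA. A human build (GRCh37.p13) stands in the submitters' processing notes, whereas the paper names a bovine genome. The 4 small RNA libraries held from 6556511 to 10452582 counts.

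For mRNA, median-of-ratios scaling and an exact binomial test (scipy 1.17.1) with Benjamini-Hochberg adjustment were used over all genes with at least 1 count, with 95% Clopper-Pearson intervals. An edgeR fit was not possible with 1 library per group. Pairs of genes were compared with Fisher's exact test and its conditional exact interval, and ratios to leukocyte and endothelial references with the same test adjusted over all genes with at least 10 counts in each library. For miRNA, all sequences passing filterByExpr were fitted with glmQLFit and glmQLFTest (edgeR 4.0.16, TMM), and SE is the absolute log2 fold change over the root of F. List medians used a prior of 0.5 counts, and a count of 0 was set at a floor of 3 where the text says so. Both tests were run on simulated data. The simulated mRNA counts held counting error only, so they say nothing about variation between animals or pools.

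The genes, lists and miRNAs were chosen with earlier results of these data known. Named from each list were the 3 genes with the most counts and, among genes with at least 20 counts, the largest rise and fall, others being marked in the text. Some values that the rule names are given only as part of a list's counts. Of the 10 genes, all are in the RefSeq table (ARS-UCD2.0), whose coordinates are not given because the build differs. Transcript lengths were not used here, so counts, sums and shares of different genes are not adjusted for length. The authors' miRNA sequences were taken from their supplementary table. Alternatives were other scalings and filters, assumed variation between pools, other call thresholds, DESeq2 1.42.0, limma-voom (limma 3.58.1), a replicate block and each miRNA library left out in turn.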

Additional observations from a re-analysis of the deposited data

How the results depend on the processing

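The number of macrophage genes called downregulated was 5 and stayed within 1.5 times of that with the other scalings, the filters on low counts, an assumed biological coefficient of variation between pools of 0.1 or 0.2, and the 2-fold threshold alone. With an assumed coefficient of 0.4 in an edgeR exact test it was 1, LYZ, and CD14, CD68, MSR1 and AIF1 were no longer called. With the adjusted p alone it was 8. Over the related lists 57 genes were called downregulated, 6 with a coefficient of 0.4 and 91 with the adjusted p alone, and 1 was called upregulated, 22 with the adjusted p alone, 8 with the 2-fold threshold alone and 0 with a coefficient of 0.2 or 0.4. Over all genes 1509 were called down and 827 up, 93 and 52 with a coefficient of 0.4, 762 and 368 with 0.2, 3354 and 3619 with the adjusted p alone, and 2912 and 2317 with the 2-fold threshold alone, while 979 were down and 460 up among genes with at least 10 counts in each library.

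Of the 8 blood cell miRNAs 2 were called, 0 with scaling by total counts, 1 without a filter on low counts, and from 0 to 2 with a library left out. Known bovine miRNAs alone gave 3, with miR-150 added at an adjusted p of 0.0226 in edgeR. The replicate block also called 3, with miR-150 at an adjusted p of 0.0128 in edgeR, and over all sequences 133 up and 119 down instead of 76 and 76. Same-numbered libraries deviated together (r = 0.304 across sequences), but with a pair of numbers and no stated pairing they share only a number. MiR-146b changed sign, to 0.16 with upper-quartile scaling, 0.054 in DESeq2, 0.21 in limma-voom, 0.25 with known bovine miRNAs alone and 0.21 with the replicate block, and lay between -0.64 and 1.22 with a library left out. With a library left out miR-142-3p lay between -1.18 and 0.15, miR-155 between -0.81 and 0.12, miR-146a between -1.20 and 0.17 and miR-342 between -0.80 and 0.039, each above 0 without the first library of bulls. In these fits a lone library is assumed to vary like the other group, and the cause of the changes was not tested.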
